A study of Mus musculus with 10 samples.

Results

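The 10 retinal ganglion cell genes Pou4f1, Pou4f2, Pou4f3, Rbpms, Sncg, Eomes, Tbr1, Isl2, Ebf1 and Ebf3 were examined out of 21631 protein-coding genes on chromosomes 1 to 19 and X. They were listed by name, and each was represented by a window of its gene body plus 20 kb on either side (build mm10). Peaks of open chromatin and of 2 histone marks were counted in each window, and so were the bases that the peaks covered. Chromatin came from retina of C57BL/6 mice with or without Casz1, a zinc finger transcription factor of retinal progenitors. ATAC-seq reported accessible DNA, into which the enzyme Tn5 inserts adapters. Explants labelled postnatal day 2 were transfected with a plasmid for GFP alone (control, labelled wild type, 2 libraries) or for GFP and Cre (Casz1 conditional knockout, cKO, 2 libraries). After 2 days ex vivo, 50000 live GFP-positive cells were sorted for each library. ChIP-seq of the histone marks used microdissected P0 tissue, and each mark had a single library per genotype. The cKO tissue was peripheral retina picked by its fluorescence. The allele, the Cre driver of the P0 tissue and the part of the retina taken for its controls were not given in the labels.

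Retinal ganglion cells are the output neurons of the eye, and their axons form the optic nerve. They are the first neurons that retinal progenitors make, and most are born before birth. The POU homeodomain factors of the Pou4f family act once a cell has committed to this fate, and T-box, LIM homeodomain and EBF factors then set up projections and subtypes. H3K27ac marks active promoters and enhancers. H3K27me3 is laid down by Polycomb repressive complexes, often as broad domains over developmental regulators in cells that do not express them.

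The lists hold peak positions only, so the sequencing depth is unknown and no interval per peak can be given. The 4 ATAC lists ranged from 40435 to 110741 peaks and from 11.8 to 61.0 Mb. Control replicate 1 and cKO replicate 2 gave short lists of narrow peaks (median width 210 and 239 bp), and control replicate 2 and cKO replicate 1 gave long ones (474 and 485 bp). The split by list length therefore crosses genotype. H3K27ac covered 55.4 Mb in control and 51.6 Mb in cKO, where the total fell by 6.84%, and H3K27me3 covered 87.4 and 84.5 Mb, where it fell by 3.30%. Peaks at the Casz1 gene are no check of the genotype, because the deleted part is not given; its window held 5678 and 23801 ATAC-covered bases in the controls and 23204 and 11588 in the cKO libraries. Windows of 5 members reach other genes: Obi1 near Pou4f1, Gtf2e2 near Rbpms, Fam25c and Mmrn2 near Sncg, Psmd14 near Tbr1 and Scaper near Isl2. All 10 retina markers examined, among them Rax, Six3, Six6, Lhx2, Pax6, Otx2, Crx and Nrl, carried H3K27ac in both genotypes. The share over all genes was 76.9%. In such mixed tissue, fewer cells of a type and less mark per cell cannot be told apart.

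Broad H3K27me3 covered most of the ganglion cell regulators in both genotypes. In control retina, the members' median was 41.0% of the window under H3K27me3, against 1.23% for all protein-coding genes. In cKO these values were 38.5% and 1.15%. Any H3K27me3 in both genotypes was found at 9 of 10 members, against 59.8% of all genes. At least 90% of the gene body was covered in both genotypes at 6 of 10 members (Pou4f1, Pou4f2, Pou4f3, Eomes, Tbr1 and Isl2), against 2.89% of all genes. All 6 encode transcription factors. Of the general ganglion cell markers, Rbpms had the mark over a small part of its window, at about the share of the regulator Ebf1, and Sncg had none.

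Each Pou4f gene lay inside a domain many times its own length. Pou4f2 is needed for ganglion cell differentiation and axon growth (chromosome 8, 78433009 to 78436647). Its window had 28854 bases under H3K27me3 in control and 28141 in cKO (66.1% and 64.5%). A single control peak of 26932 bp spanned the whole gene, and the widest cKO peak measured 27457 bp. Pou4f1, expressed in many ganglion cells and in other sensory neurons (chromosome 14, 104461675 to 104468118), had 28816 and 28608 covered bases, or 62.0% and 61.6%. The widest peak there was 27711 bp in control and 27341 bp in cKO. In both genotypes these domains held the complete gene, and covered bases fell by 2.47% at Pou4f2 and fell by 0.722% at Pou4f1.

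Pou4f3, known for its role in hair cells of the ear as well as in a subset of ganglion cells (chromosome 18, 42394597 to 42396093), had the highest coverage, with 38246 bases in control and 37850 in cKO (92.2% and 91.2% of the window). Its control peak of 42570 bp ranked 57th by width among 92652 H3K27me3 peaks. In cKO the widest peak was 31797 bp, yet 4 cKO peaks together covered 98.7% of the control domain. The domain was thus called in more pieces in cKO, and 554 of its control bases had no cKO peak.

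Among the subtype regulators, the T-box gene Eomes (chromosome 9, 118478186 to 118486132), needed for melanopsin ganglion cells, had 33416 bases in control and 32928 in cKO (69.7% and 68.7%). The other T-box gene, Tbr1 (chromosome 2, 61802863 to 61814114), which acts in ganglion cells with particular dendrite shapes, had 18928 and 20309 (36.9% and 39.6%). Tbr1 was 1 of 2 members with more covered bases in cKO. Its widest peak measured 15744 bp in control and 18997 bp in cKO, and 5 control peaks covered 95.5% of that cKO peak. The main domain was thus called in both genotypes at each T-box gene.

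Isl2 encodes a LIM homeodomain factor of ganglion cells that cross the midline (chromosome 9, 55538677 to 55547667). Its window had 20930 bases under H3K27me3 in control and 18353 in cKO. This was the largest relative difference of the 10 windows: coverage fell by 12.3%. The domain over the gene did not shorten: its widest peak was 15434 bp in control and 15445 bp in cKO. The difference lay in small peaks outside it, which covered 5496 bases in control and 2908 in cKO, while the number of peaks in the window went from 17 to 7.

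The EBF genes are long, and the mark covered only parts of them. Ebf3 (chromosome 7, 137193671 to 137322805) had 66565 bases in control and 62290 in cKO (39.4% and 36.8%), spread over 44 and 40 peaks. The widest of these lay over its start, with 22361 and 25476 bp. Ebf1 (chromosome 11, 44618100 to 45008096) had 23737 and 22204 bases, but these were 5.52% and 5.16% of a window of 429997 bp. Both are helix-loop-helix factors of early neurons.

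Rbpms, an RNA-binding protein used as a marker of all ganglion cells (chromosome 8, 33782643 to 33929922), had 10125 bases in control and 10515 in cKO. The widest peak, of 5206 and 5919 bp, lay over the end of the gene with the higher coordinate, and H3K27me3 reached 5.41% and 5.61% of the window. Sncg, which encodes gamma-synuclein (chromosome 14, 34370274 to 34374669), had no H3K27me3 peak in either library. It was the only member without the mark.

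**Figure D1:**
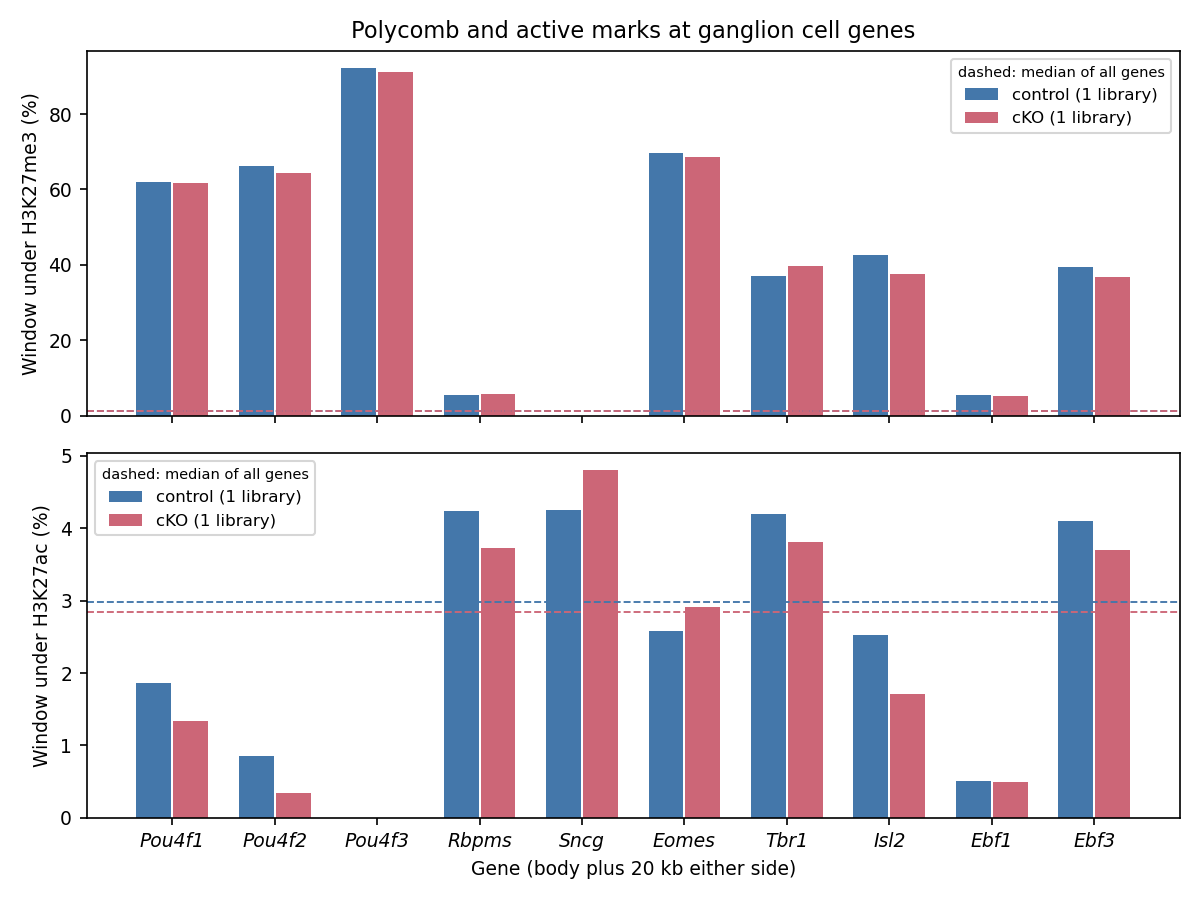
Bars give the percent of each gene's window (gene body plus 20 kb either side) under H3K27me3 peaks (top) and H3K27ac peaks (bottom) in the 1 control and the 1 cKO library, and dashed lines give the median of all protein-coding genes. Control and cKO bars for H3K27me3 are close at each gene, from 0 at Sncg to 92.2% and 91.2% at Pou4f3, while H3K27ac stays under 5% of every window.

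The H3K27me3 domains of these genes had nearly the same extent in the control and the cKO library. Of the 9 marked members, 7 had fewer covered bases in cKO, against 56.2% of all genes with the mark, and 2 (Rbpms and Tbr1) had more, against 43.5%. Past 1.2-fold, with at least 1000 covered bases in 1 of the libraries, 0 of 9 had fewer (16.3% of all genes) and 0 of 9 had more (9.86%). The median log2 ratio of cKO to control covered bases was -0.02 for the members and -0.02 for 11142 genes with that minimum and peaks in both libraries. The 5th and 95th percentiles of those genes were -0.63 and 0.44. Each of the 9 marked members had at least 10125 covered bases in control. Genes of like coverage were not set beside them for these counts and ratios. Relative to the total each list covers, Pou4f1, Pou4f2, Pou4f3 and Eomes turned from fewer to more, since they fell by less than the list did. Their directions are therefore no result. Over all 10 windows the covered bases fell by 3.12%, while the list fell by 3.30%.

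The positions of the covered bases also matched. The Jaccard index, shared bases divided by bases covered in either library, had a median of 0.901 over the 9 marked members. It was 0.688 over 11161 genes with at least 1000 covered bases and 0.785 over 3358 genes with at least 10000. The highest value among members was 0.957 at Pou4f1, and the lowest was 0.676 at Ebf1. With 1 library for each genotype these indices have no replicate check.

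**Figure D2:**
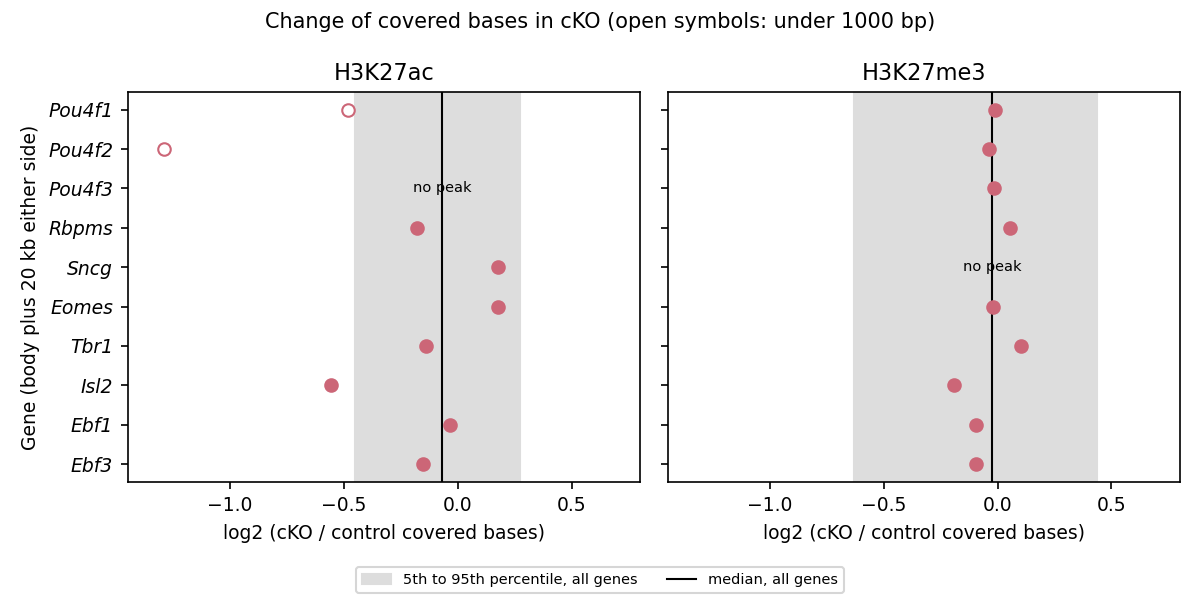
Points give the log2 ratio of cKO to control covered bases for H3K27ac (left) and H3K27me3 (right) at each gene, open where both libraries had under 1000 covered bases. The grey band spans the 5th to 95th percentile of protein-coding genes, and the line is their median. Only genes with peaks in both libraries and at least 1000 covered bases in 1 of them enter band and line, so the open symbols have no like background. For H3K27me3 every point lies inside the band, and for H3K27ac Isl2 (-0.56) lies outside it, as do Pou4f1 and Pou4f2, which are open symbols.

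The mark also lay over the start sites. Annotated starts were held for 8 of the 10 members, and 7 of these had H3K27me3 within 1 kb of a start in both genotypes, against 23.5% of 17274 genes. At Pou4f1, Pou4f2, Eomes, Tbr1, Isl2 and Ebf3 it covered 100% of the bases within 1 kb of the start in control and in cKO. Ebf1 has annotated starts at 44618100 and 44620228. The bases around its first start were covered to 71.1% in control and 93.9% in cKO, and those around its second to 100% in both. Sncg was the exception, with 0 covered bases around its start.

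Starts with different marks are shown by the 250 bases before the annotated start, read on the gene's strand from RefSeq promoters of GRCm38.p6, with CpG dinucleotides in capitals. Pou4f2 (chr8:78436648-78436897, minus strand) has H3K27me3 but no H3K27ac at its start, Eomes (chr9:118477939-118478188, plus strand) has both marks there, and Sncg (chr14:34374670-34374919, minus strand) has H3K27ac alone.
Pou4f2: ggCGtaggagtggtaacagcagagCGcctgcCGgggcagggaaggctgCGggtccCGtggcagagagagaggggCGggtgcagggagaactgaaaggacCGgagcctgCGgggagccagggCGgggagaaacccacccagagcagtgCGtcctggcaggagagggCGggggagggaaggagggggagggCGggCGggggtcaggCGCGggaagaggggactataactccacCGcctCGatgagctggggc
Eomes: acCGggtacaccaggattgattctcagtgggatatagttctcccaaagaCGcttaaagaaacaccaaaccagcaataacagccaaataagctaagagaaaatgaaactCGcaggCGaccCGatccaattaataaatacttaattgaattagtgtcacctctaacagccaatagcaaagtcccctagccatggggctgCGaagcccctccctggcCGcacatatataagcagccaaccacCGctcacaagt
Sncg: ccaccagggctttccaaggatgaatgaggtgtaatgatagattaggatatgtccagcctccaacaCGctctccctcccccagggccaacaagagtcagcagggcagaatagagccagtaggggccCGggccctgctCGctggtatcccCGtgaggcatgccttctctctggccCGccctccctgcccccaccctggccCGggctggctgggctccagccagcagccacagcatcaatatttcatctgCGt
Pou4f2 holds 17 CpG in these bases, Eomes 8 and Sncg 7, and the median over 21045 promoters was 10. Corrected for base content, the ratio of observed to expected CpG was 0.640 for Pou4f2, 0.621 for Eomes and 0.301 for Sncg, with a median of 0.537 over all promoters. The motif CCCNNGGG, searched on both strands as the EBF core, occurred once before Sncg and not in the other pair, and in 13.7% of all promoters.

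CpG content varied widely over the other starts. Pou4f1 held 47 CpG in the same stretch and Ebf3 held 43, with observed to expected ratios of 1.24 and 1.11, above 99.5% and 97.4% of all promoters. Tbr1 held 5, with a ratio of 0.406, and yet lay under H3K27me3 throughout. Of the motifs searched on both strands, TAATTA (4.24% of promoters) was found at 2 positions before Tbr1 alone, GGTGTGA (3.11%) once before the second start of Ebf1, and CCCNNGGG also before Isl2 and Ebf3. A match describes letters and not a bound site.

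H3K27ac covered about as much of the members' windows as of a typical gene's, and at 5 of the regulators most of it lay under H3K27me3. The members' median was 2.55% of the window in control and 2.31% in cKO, against 2.98% and 2.85% for all genes. Any H3K27ac in both genotypes was found at 9 of 10 members (76.9% of all genes) and within 1 kb of a start at 6 of 8 (61.4%). In control, 100% of the acetylated bases at Pou4f1, Pou4f2, Tbr1 and Isl2 lay under H3K27me3, and so did 76.3% at Eomes. Over the whole control list this share was 7.01%. The marks were measured in separate immunoprecipitations of mixed cells, so whether 1 chromosome carried both was not tested.

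Within the Pou4f family, acetylation was low to absent. Pou4f1 had 865 acetylated bases in control, in 1 peak at its start, and 620 in cKO, in 3 peaks. Pou4f2 had 372 in control and 152 in cKO, in 1 peak each at about the same place, 16433 and 16501 bp past the start on the side of the gene's end. No H3K27ac peak was called in the Pou4f3 window in either library. Pou4f1 and Pou4f2 were thus lower in cKO, but each rests on 1 to 3 short peaks of under 1000 bases.

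Both T-box genes were acetylated in each genotype. Eomes had 1238 bases in control and 1398 in cKO, in small peaks on either side of its start and at the edge of the neighbouring gene Golga4. With the gene body alone, the direction at Eomes reverses. Tbr1 had no acetylation within 1 kb of its start. Its 2148 control and 1950 cKO bases lay in 2 peaks, 1 inside the gene (centred 7619 bp past the start in control and 7573 bp in cKO) and 1 beyond its end. The second began 1018 bp past the gene's end in control and 996 bp in cKO. Tbr1 had the highest Jaccard index of the members for this mark, 0.863.

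At Isl2, H3K27ac covered 1234 bases in control and 838 in cKO, in 3 peaks each around the start. This ratio of 0.679 was the only one past 1.2-fold among the 7 members with at least 1000 covered bases: 1 of 7 fewer, against 15.9% of all genes, and 0 of 7 more, against 5.33%. The Pou4f genes were under that minimum. Counted in either direction, other windows and settings gave from 0 (at 1.5-fold) to 3 members. Eomes and Sncg, where they were among these, had more in cKO. Isl2 also had the lower H3K27me3 coverage described above, so both marks covered fewer bases there in cKO. Whether that follows genotype cannot be read from 1 library each.

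The remaining members differed less. Rbpms had 7924 acetylated bases in control and 6987 in cKO, Ebf3 had 6936 and 6247, and Ebf1 had 2176 and 2123. Sncg had 1887 and 2131, with peaks at its start, over Mmrn2 upstream and 10813 bp (control) and 10808 bp (cKO) past the start. The peak over Mmrn2 measured 557 bp in control and 650 bp in cKO. Within 1 kb of the Sncg start, 631 bases were acetylated in control and 530 in cKO. In the Sncg gene body these were 628 and 733. Fewer covered bases in cKO were found at 7 of 9 members, against 65.2% of all genes, and more at 2 of 9 (Sncg and Eomes), against 34.7%. Ebf1 turned from fewer to more relative to the list total. The members' median log2 ratio was -0.14 over the 7 with at least 1000 bases, against -0.07 over 15105 genes with that minimum and peaks in both libraries. The summed bases of all members fell by 9.42%, while the list fell by 6.84%.

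The acetylated bases of the members overlapped less between the control and cKO library than those of most genes. The median Jaccard index was 0.397 over 7 members and 0.755 over 15106 genes with at least 1000 covered bases, whose 5th percentile was 0.460. The lowest values were at Ebf1 (0.298), Eomes (0.322) and Isl2 (0.350), and the highest were at Tbr1 and Sncg (0.693). With 1 library for each genotype these indices have no replicate check, and genes of like coverage were not set beside the members.

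**Figure D3:**
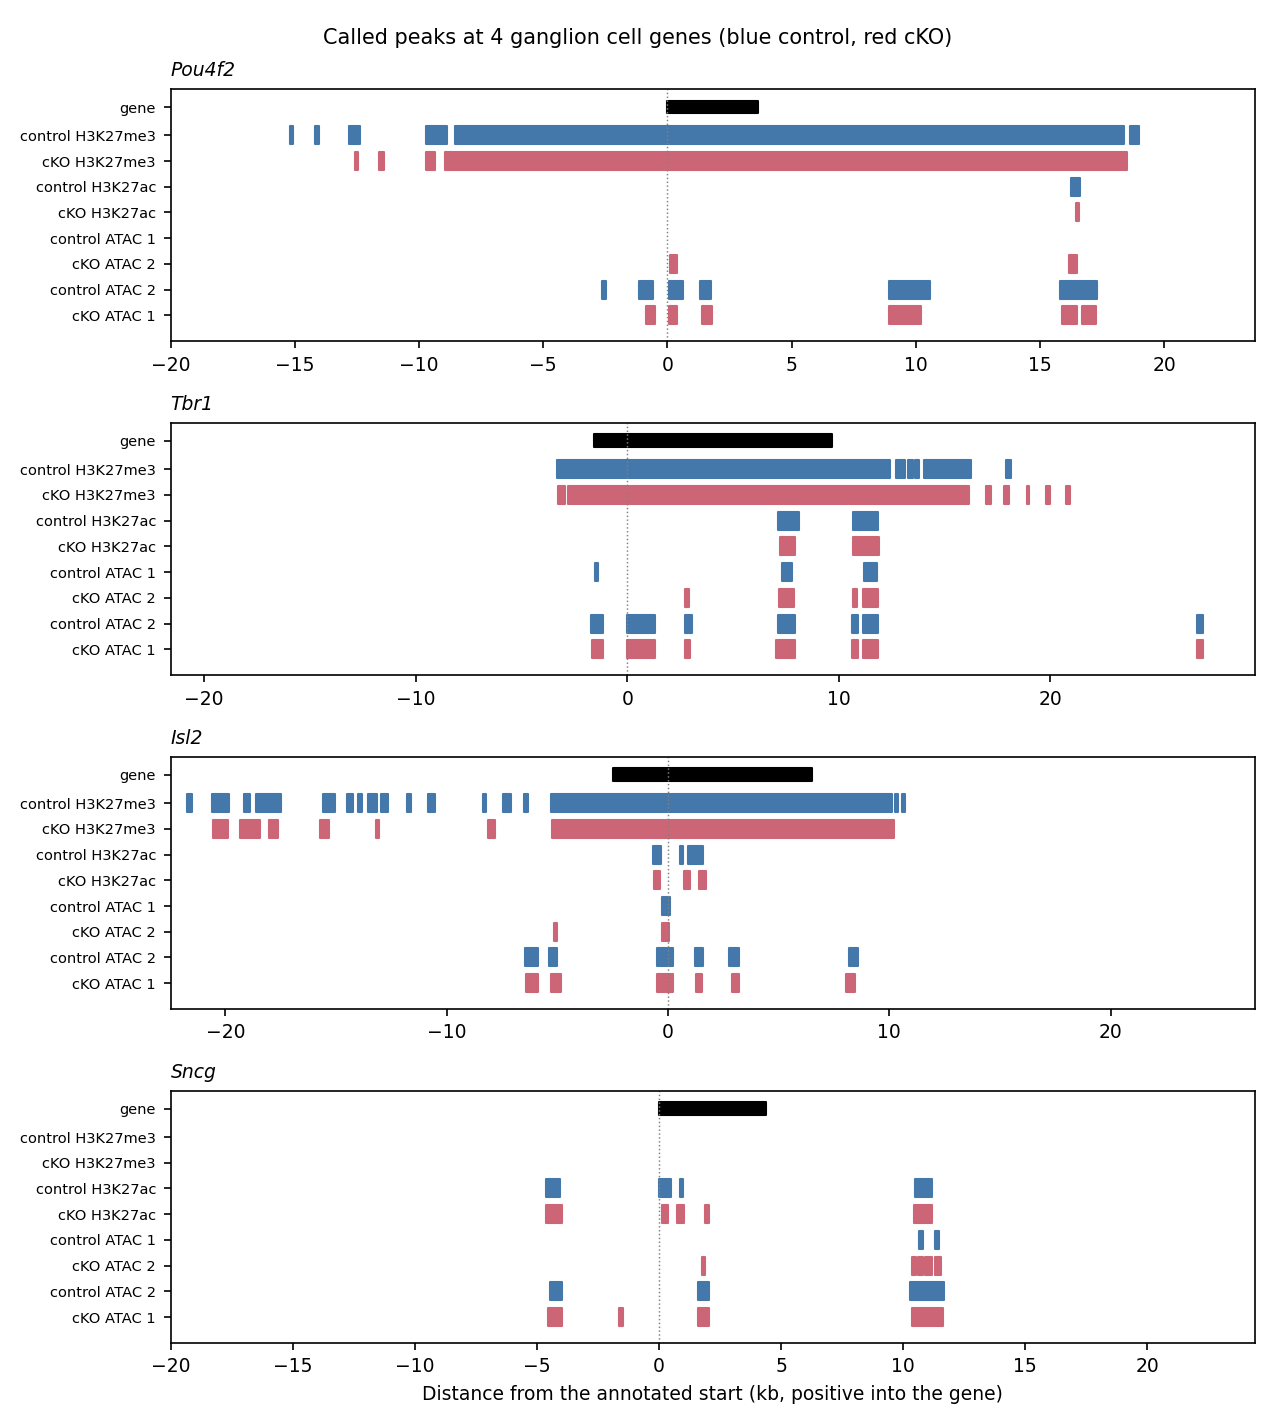
Called peaks at Pou4f2, Tbr1, Isl2 and Sncg, with the distance from the annotated start in kb on the x axis (positive in the direction of transcription), 1 row for each library, the gene as a black bar, control in blue and cKO in red. H3K27me3 spans Pou4f2, Tbr1 and Isl2 in both genotypes and is absent at Sncg, and most ATAC peaks are called in control 2 and cKO 1, the long lists.

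Open chromatin at the ganglion cell genes followed list length and showed no separation by genotype. At Pou4f2 the peaks covered 0 bases in control 1, 4934 in control 2, 3639 in cKO 1 and 628 in cKO 2. At Pou4f1 they covered 808, 3939, 3102 and 962 in the same order. At both genes the 2 long lists were high and the 2 short lists low, so the genotypes overlapped. Pou4f3 had peaks in the long lists alone, with 3702 bases in control 2 and 2863 in cKO 1.

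The subtype regulators showed the same order. Eomes had 540, 4498, 3726 and 903 covered bases in control 1, control 2, cKO 1 and cKO 2. For Tbr1 these were 1184, 4274, 4194 and 1699, and for Isl2 they were 334, 2970, 2706 and 516. Each cKO value lay between the 2 control values. Ebf1 (1650, 18092, 14198 and 3018) and Ebf3 (1254, 12931, 10145 and 3031) did likewise.

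Of the general markers, Rbpms had 743, 8920, 6974 and 1682 covered bases, with both cKO values between the controls. Sncg had 331, 2333, 2463 and 1037, and its highest value was in cKO 1. That made Sncg the only member with more covered bases in the cKO list of the long pair. The excess lay at the neighbouring gene Mmrn2. A region there had 500 bases in control 2 and 574 in cKO 1, and another had 174 in cKO 1 alone. The regions of the window away from Mmrn2 had 1368 and 465 bases in control 2, and 1252 and 463 in cKO 1.

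No member had more ATAC-covered bases in both cKO than in both control libraries (0 of 10, against 0.138% of all genes), and none had fewer (0 of 10, against 0.0478%). With 2 libraries against 2, an exact test could not reach a p of 0.05, and none was made. Comparing lists of like length gave opposite directions. In the short pair, control 1 and cKO 2, 9 of 9 members with a peak had more in cKO (96.7% of all genes) and 0 had fewer (3.24%). In the long pair, control 2 and cKO 1, 1 of 10 had more (16.9%) and 9 had fewer (83%). By replicate number, control 1 and cKO 1 gave 10 of 10 with more in cKO (99.8%) and 0 with fewer (0.215%), and control 2 and cKO 2 gave 0 of 10 with more (0.336%) and 10 with fewer (99.7%). All these shares are close to those of all genes, and the cKO list covered 1.69 times the bases of the control list in the short pair and 0.863 times in the long pair. Scaled to the total each list covers, Sncg was higher in both cKO libraries than in both controls and Pou4f1 lower, and the other 8 overlapped. The share of all genes with such an order was not computed on this scale. Whether Sncg and Pou4f1 stand out from other genes is therefore not known.

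**Figure D4:**
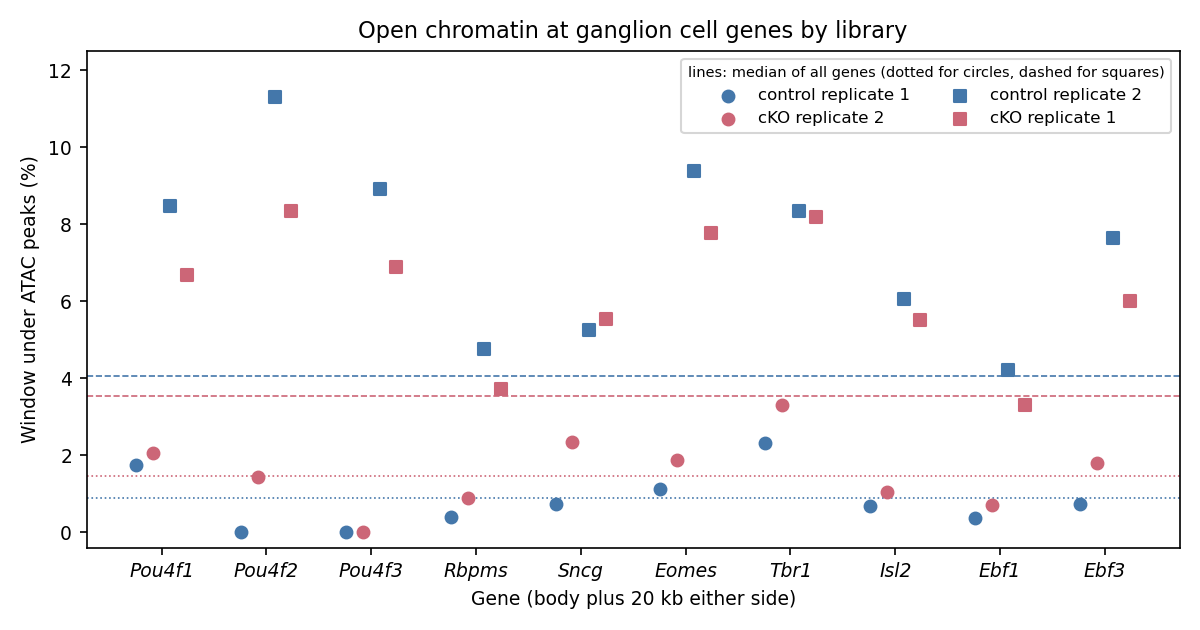
Points give the percent of each gene's window under ATAC peaks in the 4 libraries, circles for the short lists (control 1, cKO 2) and squares for the long ones (control 2, cKO 1), control in blue and cKO in red; lines are medians of all protein-coding genes. Squares lie above circles at each gene, and blue and red do not separate.

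In the long lists the members' windows held more open chromatin than the typical gene, and in the short lists they were near it. The members' median share of the window was 7.99% in control 2 and 6.34% in cKO 1, against 4.05% and 3.55% for all genes. It was 0.712% in control 1 and 1.62% in cKO 2, against 0.906% and 1.46%. Merging the 4 lists gave 125 regions in the members' windows out of 118718. All 4 lists called 25 of these, or 20% (28.2% of all regions), and control 2 and cKO 1 alone called 48, or 38.4% (28.0%). No region was called in both cKO lists and neither control list (0 of 10 windows, against 1.59% of all genes), and none in both control lists and neither cKO list (0 of 10, against 1.04%).

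Open regions at most of these genes often lay under H3K27me3. In control, 55.2% of the 125 regions overlapped an H3K27me3 peak, against 12.9% of all regions, and 24.8% overlapped H3K27ac, against 36.8%. The EBF genes gave many of the regions, with 22 of 26 under H3K27me3 at Ebf3 and 10 of 40 at Ebf1. At Rbpms it was 3 of 18 and at Sncg 0 of 4. Both marks were found at 13.6% of the members' regions and 5.01% of all. Open chromatin and marks come from different ages and preparations, since the sorted explant cells were cultured. The labels do not give which cell types the sorted cells held.

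The start sites of Pou4f1, Eomes, Isl2, Ebf1 and Ebf3 had an ATAC peak within 1 kb in all 4 libraries, which is 5 of 8 members against 57.7% of 17274 genes. The Pou4f1 region (chr14:104467265-104468404) covered 481 bases in control 1, 1140 in control 2, 1087 in cKO 1 and 694 in cKO 2. The Isl2 region (chr9:55540671-55541394) covered 334, 704, 724 and 352. Both overlapped the start and both histone marks in each genotype. Around the start of Tbr1, peaks were called in the long lists alone, with 1001 and 1000 bases, and Sncg had none in any library.

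Several of the widest shared regions lay away from the starts. At Pou4f2 it was a region 16546 bp past the start (chr8:78419348-78420855), open in 3 lists with 1508 bases in control 2, 1192 in cKO 1 and 322 in cKO 2, and it contained the only H3K27ac peak of the window. At Tbr1 it was inside the gene (chr2:61811486-61812395) with 458, 796, 910 and 712 bases in control 1, control 2, cKO 1 and cKO 2, under both marks in each genotype. At Sncg it lay 10972 bp past the start (chr14:34363014-34364381) with 331, 1368, 1252 and 907 bases and with H3K27ac in both genotypes. At all 3 the genotypes overlapped.

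At the EBF genes the widest shared regions were inside the genes and free of H3K27me3. The Ebf3 region (chr7:137228375-137229365) covered 310, 991, 848 and 766 bases and lay wholly under H3K27ac in both libraries. The Ebf1 region (chr11:44696670-44697788), 77000 bp past the start, covered 304, 1119, 1067 and 600 bases. In Rbpms the region at chr8:33833099-33834074 covered 198, 976, 858 and 640 bases and met an H3K27ac peak in cKO alone. The widest shared region met by the Eomes window crossed the window's edge and lay at Golga4, with 421, 1262, 1336 and 561 bases.

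Other genes of the ganglion cell programme were counted in the same windows. Of 16 specification genes, 9 had at least 90% of the body under H3K27me3 in both genotypes, against 2.89% of all genes. Among them was Atoh7, the factor that makes progenitors competent to form ganglion cells, with 13804 bases in control and 16258 in cKO. Of 20 genes for axon and neuron function this held for 4, and of 14 subtype genes for 1. Some H3K27me3 in both genotypes was found at 14 of the specification genes, 19 of the axon and neuron genes and 13 of the subtype genes (59.8% of all genes). The lists were not tested against each other.

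H3K27ac covered fewer bases in cKO at 14 of the 16 specification genes and more at 2 (65.2% and 34.7% of all genes), with a median log2 ratio of -0.17 against -0.07 for all genes. Large differences were at Neurog2, a proneural factor (8631 and 6682 bases), and Barhl2 (13732 and 12569). Onecut1 (4908 and 5400) and Sox11 (7244 and 7579) had more. Of 13 with at least 1000 covered bases in 1 of the libraries, 5 had fewer past 1.2-fold and 0 had more (15.9% and 5.33% of all genes). Dlx1 and Dlx2 share most of their windows and are counted as separate genes. Both are among the 5, each with 1433 bases in control and 735 in cKO. H3K27me3 covered fewer bases at 8 and more at 6 (56.2% and 43.5% of all genes). Barhl2, Onecut1 and Neurod1 were the largest of the first kind and Atoh7, Irx3 and Neurod2 of the second. None of the 12 with at least 1000 covered bases passed 1.2-fold, against 16.3% of all genes with fewer and 9.86% with more.

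Among the axon and neuron genes, 14 had fewer acetylated bases in cKO and 6 had more, near the shares of all genes, with a median log2 ratio of -0.03. Of 19 with at least 1000 acetylated bases, 2 had fewer past 1.2-fold and 1 had more (15.9% and 5.33% of all genes). Robo2, a guidance receptor, had 31986 and 27753, Nrcam had 15874 and 13697, and Nrn1 had 3127 and 2189. Slc17a6, the vesicular glutamate transporter of ganglion cells, had 1153 and 1939, while Nefl and Dcc had more by 87 and 64 bases. H3K27me3 was lower at 11 and higher at 9 (56.2% and 43.5% of all genes). The first were led by Nefl (26624 and 24549), Nrn1 (26092 and 24125) and Nefm (15263 and 13426), the second by Uchl1, Rbpms2 and Cntn2. Past 1.2-fold in H3K27me3, 1 was lower and 1 higher of 16 with at least 1000 covered bases (16.3% and 9.86% of all genes). The neurofilament genes Nefl and Nefm are typical of large axons.

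Of the subtype genes, 7 had fewer acetylated bases in cKO and 5 had more (65.2% and 34.7% of all genes). The counts past 1.2-fold were 2 with fewer and 1 with more of 10 with at least 1000 acetylated bases (15.9% and 5.33% of all genes). Zic2, which directs axons that do not cross, had 17333 and 14957, Foxp2 had 9714 and 7551, and Satb1 had 3307 and 2963. Tfap2d, Spp1 and Tbx20 had more. Foxp2 also had the largest H3K27me3 difference, with 17780 bases in control and 29885 in cKO, followed by Foxp1 (57810 and 61270). H3K27me3 was lower at 6, led by Trarg1, Cartpt and Satb1, and higher at 7 (56.2% and 43.5% of all genes). Past 1.2-fold in H3K27me3, 1 was lower and 1 higher of 13 with at least 1000 covered bases (16.3% and 9.86% of all genes). The Tbx20 window held 1 control-only ATAC region, the sole genotype-only region among these ganglion cell lists (1.04% of all genes had a control-only region). The window of the pericyte gene Pdgfrb held 1 as well.

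Marker lists gave the following values. The 10 retina markers had 162487 acetylated bases in control and 150318 in cKO. Coverage was lower at 8 and higher at 2 (65.2% and 34.7% of all genes), with a median log2 ratio of -0.12. Amacrine and horizontal cell genes, which share the inner retina with ganglion cells, were acetylated in both genotypes at 8 of 8 (76.9% of all genes). Their summed bases were 68472 in control and 63324 in cKO. At least 90% of the body was under H3K27me3 in both genotypes at 5 of 8 (2.89% of all genes). Of 7 pericyte and endothelium genes, 6 had fewer acetylated bases in cKO (65.2% of all genes), with sums of 37345 and 29527. Of 5 with at least 1000 acetylated bases, 4 had fewer past 1.2-fold and 0 had more (15.9% and 5.33% of all genes). Rgs5 had no H3K27ac in either library and Tek had none in cKO. Of 10 genes listed as markers of other tissues, 4 had no acetylation in control, with sums of 13295 and 9969. Tbx5 alone held 6613 and 4372 of these bases, so the sums do not describe the list as a whole. The part of cell composition in these values was not tested.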

How the data were processed

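Reads were aligned and peaks called by the authors with Bowtie2, deepTools and MACS2 on mm10, per the submitters' processing notes; settings not given in the sources used here include versions, threshold, narrow or broad mode and input subtraction. The 8 deposited lists hold peak positions, 1 list per library, and the deposited score column is 0 throughout and was not used. The 2 input samples were not analysed here. Peaks were intersected with gene windows (body plus 20 kb) from RefSeq genes (GRCm38.p6, which is mm10), and bases covered by merged peaks were counted with Python 3.11.15 and numpy 2.4.6. The counting was checked on simulated intervals. ATAC lists were merged into union regions where peaks shared at least 1 bp. Changes past 1.2-fold needed 1000 covered bases in 1 of the libraries. Regions are placed as inside or outside a gene, without exons or introns. Start sites, reached within 1 kb, came from the RefSeq promoter table, which matched 8 of 10 members; Rbpms and Pou4f3 were not matched. Groups came from the sample titles. The 2 ATAC experiments were run on different days per the labels' protocols, which do not say which library belongs to which day. The samples are separate libraries, and nothing says that they came from separate animals. No test was made, since an exact permutation test of 2 against 2 ATAC libraries cannot reach a p of 0.05 and each mark has 1 library per genotype; the members' counts stand beside the share of all protein-coding genes. The members and lists were chosen with earlier results of these data known. Besides the members, the text names in each other ganglion list up to 3 genes that changed most per mark in covered bases, up and down, genes there with a genotype-only ATAC region, and per member the region called in the most lists with the widest mean peak; Atoh7, Dlx1 and Dlx2 and the marker genes are named for their roles. Some genes that this rule took are not reported here. Alternatives were other windows, peak widths, merging, equal list lengths, scaling, overlap, fold, minimum and leaving out each ATAC library.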

Additional observations from a re-analysis of the deposited data

How the results depend on the processing

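No paired analysis was possible because these counts come from no test; pairs of like replicate number stand in the report as values, and the labels do not say which ATAC libraries shared a day. Left-out libraries decide the ATAC counts: members with more covered bases in the cKO libraries than in the controls numbered 0 to 9 (9 without control replicate 2), members with fewer 0 to 9 (9 without control replicate 1), regions called in cKO only 0 to 16, and regions called in control only 0 to 25. Scaled to the list totals, 1 member had more and 1 fewer in both cKO libraries, with no share of all genes computed on that scale. With equal numbers of peaks, 1 cKO-only and 1 control-only region appeared. For H3K27ac, members with more bases in cKO numbered 1 with the gene body alone. Members past 1.2-fold in H3K27ac numbered 2 with the gene body, 3 with 5 kb flanks, 2 with 50 kb flanks, 2 with peaks of at least 200 bp, 3 when scaled, 3 with no minimum and 0 at 1.5-fold, against 1 as reported. These H3K27ac counts take either direction. Eomes was among them with more in cKO at 5 kb flanks, with peaks of at least 200 bp and when scaled. So was Sncg at 50 kb flanks and when scaled. For H3K27me3, members with fewer bases in cKO numbered 2 with the gene body, 3 with 5 kb flanks and 3 when scaled, against 7. Members with more numbered 1 with the gene body, 1 with 50 kb flanks and 6 when scaled, against 2. Rbpms changed direction with 50 kb flanks, and Pou4f3 and Rbpms did when peaks within 500 bp were merged. The gene bodies of 6 members are wholly covered in both libraries, so a body-only window leaves fewer members that can differ; the cause of the other changes was not tested. The count of members past 1.2-fold in H3K27me3 stayed at 0 under every alternative run. Without read depth, a peak absent from a short list cannot be told from one not detected.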
